A study of Mus musculus with 7 samples.

Results

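Adipocyte and lipid storage genes are described here in mesenteric artery, the small vessels that carry blood to the intestine and that lie embedded in fat. A list of 38 genes was read by symbol from a table of 23332 rows: 34 had a row of their own, each with exactly 1 symbol, and for none of them was there a second row. Cfd, Acsl1 and Me1 had no row under their present or former names in the annotation used here, and Lipe shared its row with another gene, so these 4 were not analysed here. The arrays came from 3 male mice with smooth muscle expression of P467L, a mutated human PPARγ with dominant negative action, and from 4 littermates without the transgene, whose sex the labels leave out. The transgene was driven by the smooth muscle myosin heavy chain promoter, so vascular muscle was its intended site and fat cells were not, and the endogenous mouse gene was present in both groups. Each array held the RNA of the mesenteric artery of 1 mouse, and the labels give no age. Values are on the log2 scale, so a difference of 1 is a doubling. A value depends on the probes of its row, so levels were compared between arrays, and a level is set against the rest of its array only to say that a row was bright or dim.

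Fat cells store triglyceride in a lipid droplet. Lipoprotein lipase frees fatty acids from circulating particles, Cd36 and fatty acid binding proteins bring them in and carry them, a chain of acyltransferases joins them to glycerol, and perilipins and CIDE proteins coat the droplet until lipases release the fat again. PPARγ together with C/EBPα drives this program in adipocytes, and Adipoq, Cidec, Fabp4 and Cd36 are among the genes it is known to switch on there. In an artery sample such transcripts can come from fat that adheres to the vessel as well as from the wall, and with RNA from whole tissue fewer cells of a type and less RNA per cell cannot be told apart.

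The arrays were alike in the lower part of their distribution, with medians from 6.29 to 6.34 and lower quartiles from 5.26 to 5.29. Upper quartiles were less alike, at 7.29 in non-transgenic replicate 1, 7.28 in P467L replicate 2 and 7.1 to 7.21 elsewhere. The same pair of mice was highest in Adipoq. The row of Myh11, smooth muscle myosin heavy chain, was bright, between 11.32 and 11.57 on every array. Over all rows, limma called 0 (0%) different between the groups at an adjusted p of 0.05, whereas 724 (3.10%) had an unadjusted p under 0.05. Non-transgenic replicate 1 stood apart in the fat cell genes, so the differences of these genes and of the gene lists are given with and without it.

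In the genes that varied most, mice of the same genotype lay farther apart than the group means. Adipoq, which encodes the fat hormone adiponectin, was at 10.69, 8.45, 9.13 and 9.32 in non-transgenic replicates 1 to 4 and at 8.55, 9.62 and 8.83 in P467L replicates 1 to 3. The highest and the lowest mouse were both non-transgenic, 4.72-fold apart, and the P467L mice lay between them. Of the 34 genes, 9 (26.5%) spanned at least 1 log2 unit over the 7 arrays, against 19.3% of all rows. Non-transgenic replicate 1 alone held the highest value in 21 of them (61.8%), against 19.6% of all rows. By Dixon's criterion 1 non-transgenic array lay far from the other 3 in 6 of 32 genes that vary in that group (18.75%), close to the 20.2% of all such rows.

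**Figure D1:**
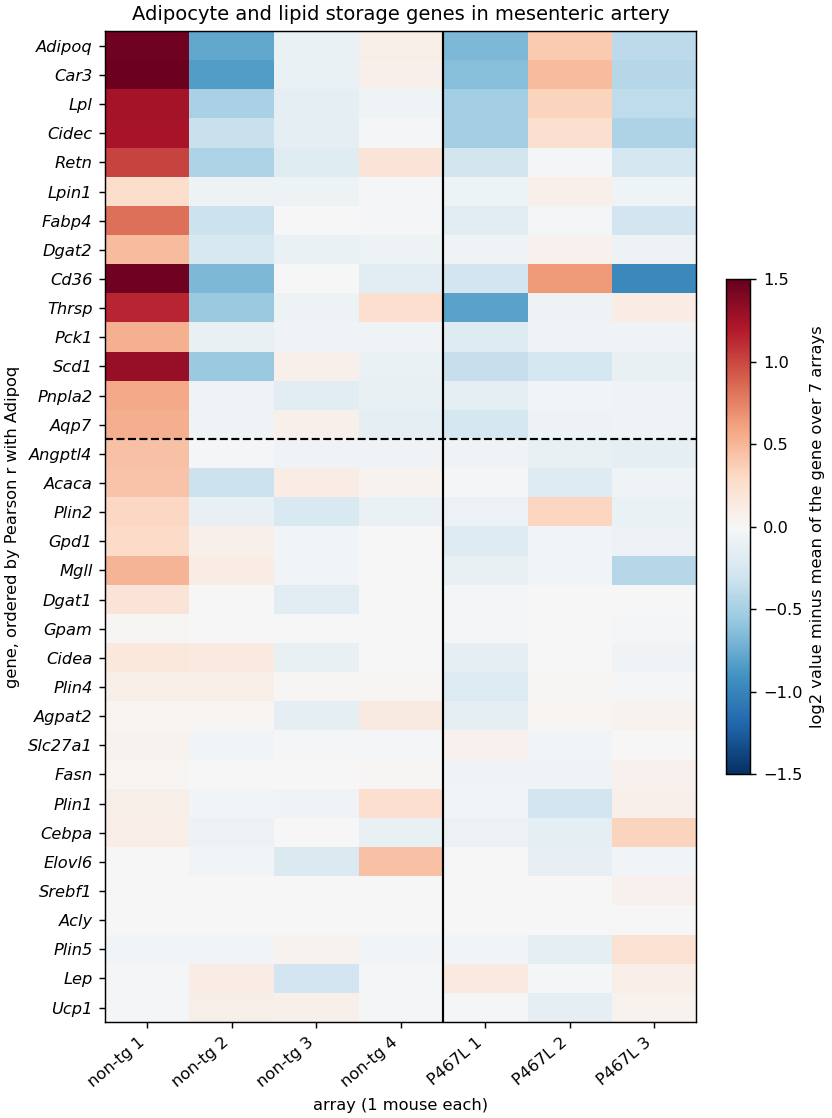
Deviation of each gene (rows, ordered by Pearson r with Adipoq) from its mean over the 7 arrays (columns), in log2 units. Above the dashed line lie Adipoq and the 13 genes with r of at least 0.8, all highest in non-transgenic replicate 1, and below it the 20 others, which hardly varied in many cases.

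Among the secreted factors, resistin went with adiponectin and leptin did not. Retn, the resistin gene, was at 8.52, 7.04, 7.33 and 7.70 in non-transgenic replicates 1 to 4 and at 7.23, 7.49 and 7.24 in P467L replicates 1 to 3, so all P467L mice lay inside the non-transgenic range. Lep, the gene of the satiety hormone leptin, was at 5.01, 5.15, 4.74 and 5.01 in non-transgenic and at 5.18, 5.01 and 5.13 in P467L artery. Its values stayed below the lower quartile of every array, and the mouse with the most Adipoq signal was not high in Lep. Angptl4, an inhibitor of lipoprotein lipase and a PPAR target, reached 7.22 in non-transgenic replicate 1, with the other 6 arrays between 6.65 and 6.76.

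Of the 5 measured genes of fatty acid uptake and transport, Cd36 and Lpl were high in the same pair of mice as Adipoq, non-transgenic replicate 1 and P467L replicate 2. Cd36, the membrane transporter of fatty acids, was at 10.33, 8.20, 8.86 and 8.71 in non-transgenic replicates 1 to 4 and at 8.58, 9.51 and 7.90 in P467L replicates 1 to 3. Its span of 5.39-fold was the widest among the 34 genes, and its lowest mouse, unlike that of Adipoq, was P467L replicate 3. Lpl, lipoprotein lipase, was at 9.26, 7.53, 7.87 and 7.95 in non-transgenic and at 7.51, 8.35 and 7.64 in P467L artery. Fabp4, the adipocyte fatty acid binding protein, was at 7.95, 6.80, 7.13 and 7.09 in non-transgenic and at 6.95, 7.09 and 6.83 in P467L artery. In both genes the groups overlapped, and 1 non-transgenic mouse lay above all others. Aqp7, the channel through which glycerol leaves the fat cell, was at 6.34 in that mouse and from 5.53 to 5.87 in the other 6. Slc27a1, the fatty acid transport protein FATP1, varied by no more than 0.11 over the arrays.

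**Figure D2:**
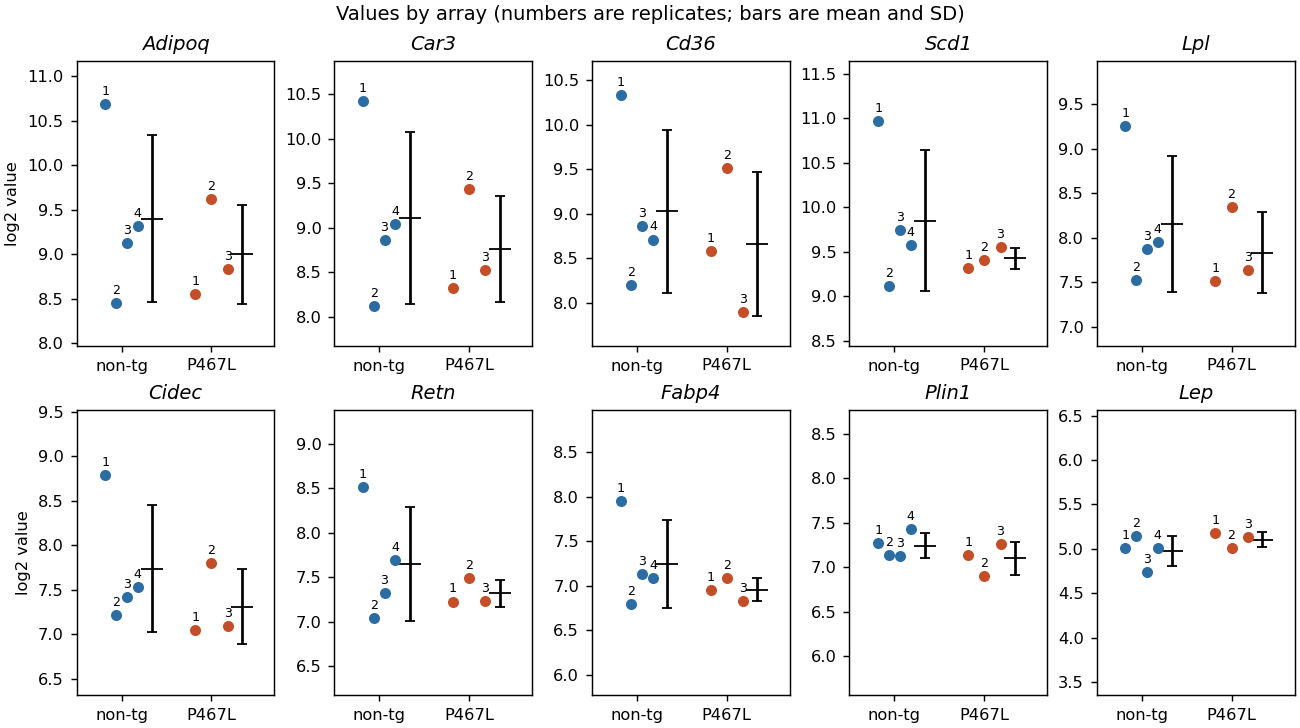
Log2 values of 10 genes by group, with each point 1 mouse labelled by its replicate number and bars for the mean and SD, every panel spanning 3.2 log2 units. Non-transgenic replicate 1 is above all other arrays in the first 8 genes, and Plin1 and Lep vary little.

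The coat proteins of the lipid droplet did not behave as a block. Cidec, which lets lipid droplets fuse into the single large droplet of white fat cells, was at 8.79, 7.22, 7.42 and 7.53 in non-transgenic replicates 1 to 4 and at 7.05, 7.80 and 7.09 in P467L replicates 1 to 3, an order of mice close to that of Adipoq. Plin1, the perilipin that gates lipolysis in fat cells, was at 7.27, 7.14, 7.13 and 7.43 in non-transgenic and at 7.14, 6.90 and 7.26 in P467L artery. Its highest mouse was non-transgenic replicate 4, and its lowest was P467L replicate 2, the mouse that came next after non-transgenic replicate 1 in Adipoq. Plin2, the perilipin found on droplets of most cell types, was at 8.34, 7.92, 7.80 and 7.93 in non-transgenic and at 7.95, 8.36 and 7.93 in P467L artery, high in the same pair of mice as Adipoq but with P467L replicate 2 slightly above. Plin4, another perilipin of fat cells, was at 7.29, 7.29, 7.22 and 7.22 in non-transgenic and at 7.0, 7.22 and 7.19 in P467L artery, with a tie between the groups at 7.22. Plin5, the perilipin of oxidative tissue, ranged from 6.29 to 6.65 and Cidea, a brown fat relative of Cidec, from 5.76 to 6.06.

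Triglyceride synthesis and breakdown were represented by 9 measured genes with narrower spans. Dgat2, which adds the last acyl chain, stood at 7.53 in non-transgenic replicate 1 against 6.82 to 7.12 elsewhere. Pck1, which supplies glycerol 3-phosphate in fat, was at 7.21 in that mouse and from 6.48 to 6.62 elsewhere, and Lpin1, the phosphatidate phosphatase lipin-1, was at 6.84 against 6.50 to 6.65. Gpd1, the cytosolic glycerol 3-phosphate dehydrogenase, was at 6.90, 6.69, 6.57 and 6.62 in non-transgenic and at 6.42, 6.57 and 6.53 in P467L artery. It overlapped between the groups only through the value 6.57. Dgat1, Gpam and Agpat2, the other acyltransferases, spanned 0.37, 0.05 and 0.27. Mgll, the lipase that cleaves monoglyceride, was at 8.50, 8.10, 7.95 and 7.99 in non-transgenic and at 7.88, 7.95 and 7.56 in P467L artery, where the value 7.95 was again shared. Pnpla2, the lipase that starts triglyceride breakdown, stood at 8.28 in non-transgenic replicate 1, and the other 6 arrays lay between 7.56 and 7.68.

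Fatty acid synthesis was split between genes that varied widely and genes that hardly varied. Scd1, the desaturase that makes oleate, was at 10.97, 9.11, 9.74 and 9.57 in non-transgenic replicates 1 to 4 and at 9.32, 9.40 and 9.55 in P467L replicates 1 to 3, so P467L replicate 2 did not stand out here as it did in Adipoq. Thrsp, a lipogenic regulator known as Spot 14, was at 8.36, 6.67, 7.15 and 7.47 in non-transgenic and at 6.42, 7.15 and 7.33 in P467L artery. Acaca, acetyl-CoA carboxylase, spanned 0.75, whereas Fasn, fatty acid synthase, spanned 0.13 and Acly, ATP citrate lyase, 0.01. The row of Elovl6, a fatty acid elongase, was dim at 4.26 to 4.92, below the lower quartile of every array. The transcription factors of the program also differed little: Cebpa ranged from 7.25 to 7.73, and Srebf1, the activator of lipid synthesis genes, was at 6.79 on 6 arrays and at 6.86 in P467L replicate 3. In 6 of the 34 genes (Srebf1, Acly, Gpam, Dgat1, Pck1 and Plin5) at least 4 arrays shared 1 value. Such a tie was also seen in 4671 of all 23332 rows, so it was not particular to these genes.

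Genes outside these pathways gave the closest and the most distant match to Adipoq. Car3, carbonic anhydrase 3, an abundant enzyme of mouse white fat and of slow muscle, was at 10.43, 8.12, 8.86 and 9.04 in non-transgenic replicates 1 to 4 and at 8.32, 9.44 and 8.53 in P467L replicates 1 to 3. This put the 7 mice in exactly the order of Adipoq. Ucp1, the uncoupling protein of brown fat, was at 5.81, 5.91, 5.90 and 5.80 in non-transgenic and at 5.81, 5.68 and 5.88 in P467L artery, a span of 0.23, and it was not raised in the mice with high Adipoq.

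How far the genes varied together was measured by Pearson's r of each row with Adipoq over the 7 arrays. Of the 33 other measured genes, 13 (39.4%) had an r of at least 0.8, against 4.00% of the 23049 rows that were not constant. These were Car3, Lpl, Cidec, Retn, Lpin1, Fabp4, Dgat2, Cd36, Thrsp, Pck1, Scd1, Pnpla2 and Aqp7. Car3 had an r of 0.998 and a Spearman's rho of 1, with exact permutation p-values of 0.000198, the smallest that all pairings of 7 arrays can give, and 0.000397. For Lpl r was 0.988 and rho 0.964, with exact permutation p-values of 0.000397 and 0.00278, and for Cidec r was 0.972 and rho 0.893, with exact permutation p-values of 0.00139 and 0.0123. After adjustment over all 23049 rows the smallest adjusted permutation p among the 33 genes was 0.572, so no single relation passed.

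The relation rested on non-transgenic replicate 1 for many of the genes, but not for the closest ones. Without this array 6 of 33 (18.2%) kept an r of at least 0.8, against 2.45% of all rows: Car3 at 0.996, Lpl at 0.968, Cidec at 0.911, Retn at 0.838, Lpin1 at 0.817 and Fabp4 at 0.801. Leaving out the 2 arrays farthest from the median of Adipoq, non-transgenic replicates 1 and 2, left 5 arrays and gave 0.995 for Car3, 0.980 for Cidec, 0.977 for Lpl and 0.831 for Lpin1, while Scd1 dropped to 0.210, Aqp7 to 0.435 and Pnpla2 to 0.493. In that reduced set 7 of 33 genes (21.2%) reached 0.8, against 5.18% of all rows. With each value taken as its deviation from the mean of its own group, 14 of 33 genes (42.4%) reached 0.8, against 5.77% of all rows, and these deviations still include non-transgenic replicate 1. By rank, 8 of 33 genes (24.2%) had a Spearman's rho of at least 0.8, against 2.94% of all rows.

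**Figure D3:**
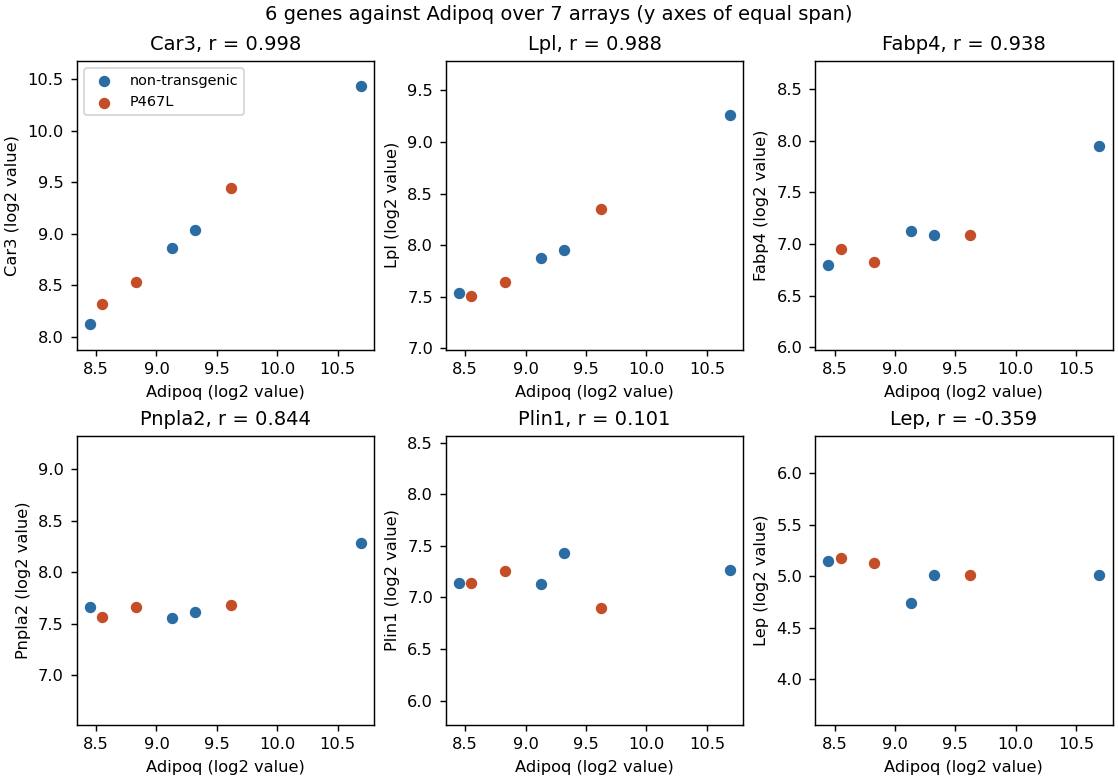
Log2 values of 6 genes (y axes) against the log2 value of Adipoq (x axes), 1 point per mouse. Car3, Lpl and Fabp4 climb with Adipoq over the arrays, Pnpla2 is raised only in non-transgenic replicate 1, and Plin1 and Lep show no such slope.

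The genes differed in how steeply they followed Adipoq. A change of 1 log2 unit in Adipoq went with 1.02 in Car3, 0.984 in Cd36, 0.801 in Lpl and 0.765 in Cidec, and with 0.475 in Fabp4, 0.278 in Pnpla2 and 0.158 in Lpin1. Taken against the mean of the other 6 arrays, non-transgenic replicate 1 was 3.28-fold higher in Car3, 3.26-fold in Adipoq and in Cd36, 2.87-fold in Scd1, 2.74-fold in Lpl and 1.96-fold in Fabp4. In Plin1 the corresponding ratio was 1.07, and in Lep it was 0.982. Since r with Adipoq chose the 14 genes that vary together, their mutual likeness is only a description: the median r over their 91 pairs was 0.915, against 0.163 over the 190 pairs of the 20 remaining genes. Of those 20, Lep, Ucp1, Plin5, Srebf1 and Acly had an r with Adipoq below 0, from -0.454 for Ucp1 to -0.228 for Srebf1 and Acly. The last 2 values rest on a single differing array each.

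**Figure D4:**
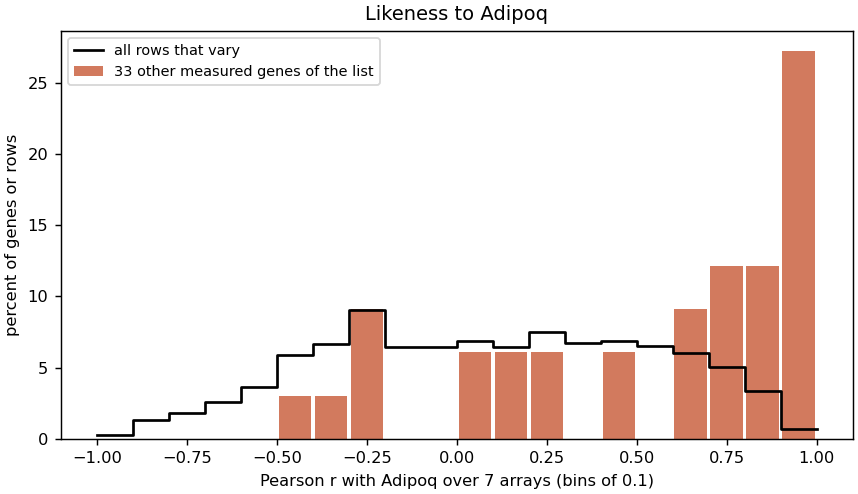
Distribution of Pearson r with Adipoq over 7 arrays in bins of 0.1, as a percent of the 33 other measured genes (bars) and of all rows that vary (line). The bin from 0.9 to 1 holds 9 of the 33 genes (27.3%) and 0.672% of the rows.

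Because 14 genes moved together, the sequences just before the transcription start are shown for a few genes of the list, not all of them among the 14. Windows of 250 bases before the start, from RefSeq on the GRCm38.p6 build, were found for 25 of the 34 genes by symbol, some with several starts. They were searched on both strands for the PPAR-type direct repeat, 2 copies of AGGTCA with 1 free base between them, allowing 2 mismatches, and for the C/EBP-type palindrome TTGCGCAA, allowing 1 mismatch. Adipoq is shown as the gene that served as yardstick, Cd36, Aqp7 and Plin2 as those with a direct repeat, and Plin1 as a fat cell gene with a narrow span. Capitals mark the matches, and each window runs 5′ to 3′ in the direction of the gene.
Adipoq, chr16:23146286-23146535, plus strand: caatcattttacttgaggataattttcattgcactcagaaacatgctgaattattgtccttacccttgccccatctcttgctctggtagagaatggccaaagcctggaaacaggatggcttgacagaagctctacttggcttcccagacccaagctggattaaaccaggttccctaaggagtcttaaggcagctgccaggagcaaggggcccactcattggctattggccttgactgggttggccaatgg
Cd36, chr5:17835897-17836146, minus strand: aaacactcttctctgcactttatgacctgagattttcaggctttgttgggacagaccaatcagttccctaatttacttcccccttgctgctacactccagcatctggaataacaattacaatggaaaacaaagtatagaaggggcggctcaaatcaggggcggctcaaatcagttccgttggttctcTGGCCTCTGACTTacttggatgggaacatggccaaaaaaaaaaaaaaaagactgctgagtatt
Aqp7, chr4:41048137-41048386, minus strand: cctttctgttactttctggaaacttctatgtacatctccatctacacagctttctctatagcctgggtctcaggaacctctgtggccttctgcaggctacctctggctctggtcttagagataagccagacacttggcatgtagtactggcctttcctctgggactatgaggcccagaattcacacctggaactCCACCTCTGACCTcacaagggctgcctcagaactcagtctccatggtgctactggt
Plin2, chr4:86670060-86670309, minus strand: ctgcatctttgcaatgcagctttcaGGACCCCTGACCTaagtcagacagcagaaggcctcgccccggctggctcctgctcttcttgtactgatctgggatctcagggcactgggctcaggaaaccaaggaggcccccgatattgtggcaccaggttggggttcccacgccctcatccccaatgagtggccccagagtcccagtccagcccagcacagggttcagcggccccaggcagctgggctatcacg
Plin1, chr7:79732777-79733026, minus strand: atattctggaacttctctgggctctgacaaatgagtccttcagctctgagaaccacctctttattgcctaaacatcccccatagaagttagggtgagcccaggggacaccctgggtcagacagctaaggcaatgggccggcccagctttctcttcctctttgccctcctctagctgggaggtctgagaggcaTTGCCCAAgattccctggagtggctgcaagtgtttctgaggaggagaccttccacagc

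The direct repeat was found before 3 of 25 genes (12%), against 3.24% of all 32851 windows, and the C/EBP-type palindrome before 6 of 25 (24%), against 5.08%. A gene with several starts has more than 1 chance of a match. Of the 14 genes, Car3, Lpl, Fabp4, Dgat2 and Scd1 had no window and could not be searched. The repeats, all on the strand opposite to the gene with 2 mismatches, began 63 bases before the start in Cd36, 56 in Aqp7 and 225 in Plin2, and the window of the other Aqp7 start held the same repeat and 1 more. Those 3 genes had an r with Adipoq of 0.920, 0.835 and 0.758. The palindrome was exact before Lep and had 1 mismatch before Plin1, Cidec, Cebpa, Elovl6 and Ucp1, of which only Cidec was among the 14. Adipoq, the yardstick, had no match to either motif in this window. A match of letters is a description and does not show that a factor binds there.

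The genotypes were then compared, which asks whether interference with PPARγ in smooth muscle went with other levels of these transcripts in the vessel. Of the 34 genes 27 (79.4%) had a lower and 7 a higher mean in P467L artery, against 50.7% of all rows with a lower mean, and the median difference was -0.13 against -0.0025 over all rows. In limma 0 of the 34 passed at an adjusted p of 0.05, where every adjusted p was 1, and 0 had an unadjusted p under 0.05. The values of the groups overlapped in all 34 genes, against 2.57% of all rows without overlap. With 3 mice against 4 the smallest two-sided p an exact permutation test allows is 0.0571, and the smallest seen among these genes was 0.114.

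In the genes that varied most, the sign or size of the difference depended on single mice, among them non-transgenic replicate 1. Adipoq averaged 9.40 ± 0.94 (SD, n = 4) without the transgene and 9.0 ± 0.55 (SD, n = 3) with it. The means differed by -0.40 (95% interval -1.77 to 0.98), and by 0.033 once non-transgenic replicate 1 was left out. Car3 differed by -0.35 and, without that mouse, by 0.090, Lpl by -0.32 and 0.050, and Cd36 by -0.36 and 0.073. Thrsp (-0.45), Cidec (-0.43), Scd1 (-0.42), Retn (-0.33) and Fabp4 (-0.29) had lower P467L means in both cases, at -0.13, -0.077, -0.050, -0.037 and -0.050 without it. All of the 14 genes that varied with Adipoq had a lower mean in P467L artery over all arrays, with a median difference of -0.32, and without non-transgenic replicate 1 this became 7 lower and 7 higher with a median of -0.0017. Over the 34 genes that array took the count from 27 to 19 lower (55.9%, against 45.0% of all rows) and the median from -0.13 to -0.028. Leaving out other mice moved single genes as well. Cd36 differed by 0.02 without P467L replicate 3. Adipoq differed by -0.71 without non-transgenic replicate 2 or without P467L replicate 2, and by -0.17 without P467L replicate 1.

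**Figure D5:**
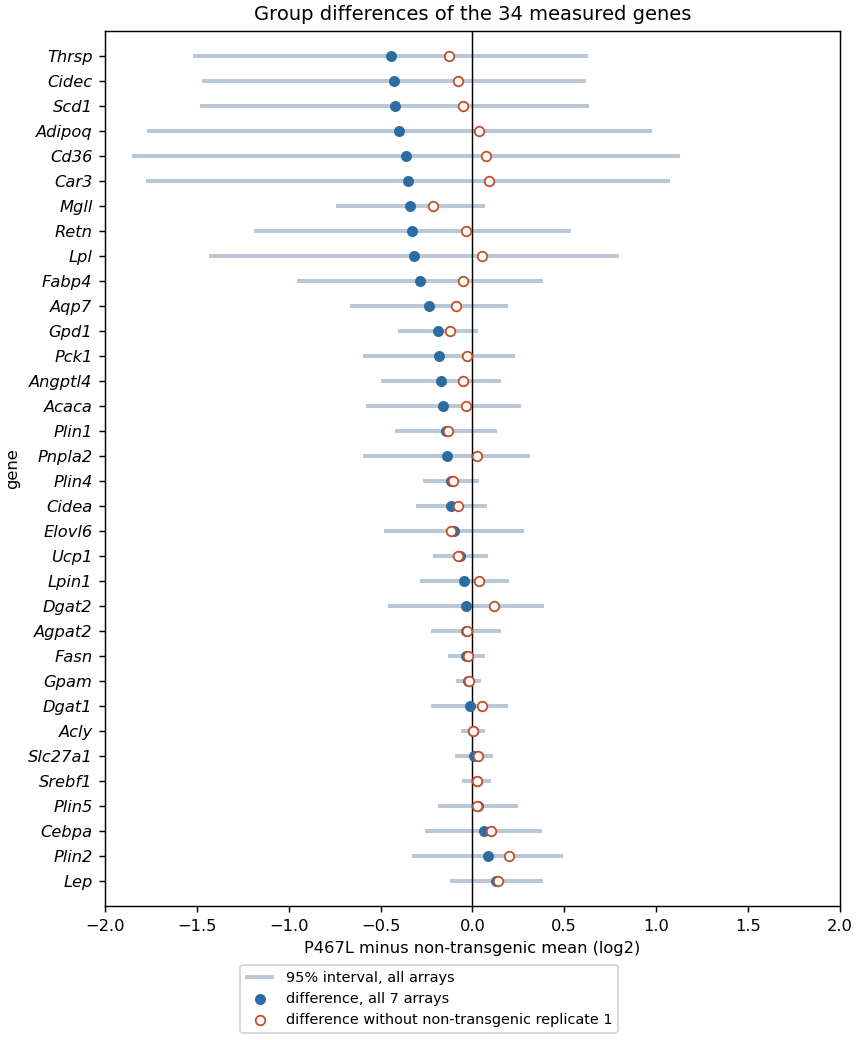
Difference of group means (P467L minus non-transgenic, log2, x axis) of the 34 measured genes (y axis), with 95% intervals from limma over all arrays as bars. Filled points use all 7 arrays and open points leave out non-transgenic replicate 1. Every interval includes 0.

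Among the genes that varied less, some kept a lower P467L mean without non-transgenic replicate 1, although none passed the test. Gpd1 had the smallest unadjusted p of the 34 genes, averaging 6.51 ± 0.078 (SD, n = 3) with the transgene and 6.70 ± 0.15 (SD, n = 4) without it. Its means differed by -0.19, 95% interval -0.41 to 0.031 (limma, unadjusted p = 0.0799, adjusted p = 1). Mgll differed by -0.34, interval -0.74 to 0.067 (limma, unadjusted p = 0.0873, adjusted p = 1), and Plin4 by -0.12, interval -0.27 to 0.035 (limma, unadjusted p = 0.108, adjusted p = 1). Without non-transgenic replicate 1, which was highest in Gpd1 and Mgll, these differences shrank to -0.12 in Gpd1 and -0.22 in Mgll and were -0.11 in Plin4. Gpd1, Mgll and Gpam were the 3 genes (8.82%) whose difference exceeded the SD of either group, against 12.8% of all rows, and that of Gpam was -0.0225 in a row with ties. Plin1 differed by -0.14 with, and -0.13 without, the same array, less than its SD of 0.18 among P467L mice. In the opposite direction Lep had the smallest unadjusted p (limma, unadjusted p = 0.259), with a difference of 0.13 (interval -0.12 to 0.38). By p it was followed by Srebf1, with a difference of 0.023 (limma, unadjusted p = 0.491), and Plin2, with a difference of 0.0825 (limma, unadjusted p = 0.641). The intervals of Adipoq, Cd36 and Car3 run below -1 and reach 0.98, 1.13 and 1.08, whereas those of Acly, Gpam, Srebf1 and Fasn lie between -0.13 and 0.10.

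By role, 4 of 5 measured uptake and transport genes, 7 of 7 triglyceride synthesis genes, 2 of 2 lipolysis genes, 5 of 6 fatty acid synthesis genes, 4 of 6 droplet genes and 3 of 4 secreted factors had lower P467L means, and neither transcription factor did. The median differences were -0.29 for uptake and transport, -0.24 for lipolysis, -0.25 for secreted factors, -0.13 for fatty acid synthesis, -0.12 for droplet genes and -0.036 for triglyceride synthesis. Without non-transgenic replicate 1 the lower means numbered 2 of 5 for uptake and transport, 4 of 7 for triglyceride synthesis, 1 of 2 for lipolysis, 5 of 6 for fatty acid synthesis, 4 of 6 for droplet genes and 2 of 4 for secreted factors, and the medians were 0.030, -0.020, -0.095, -0.043, -0.077 and -0.0017 in that order. In all of these groups 0 genes passed the test. The group with the most genes at an r of at least 0.8 with Adipoq was uptake and transport, with 4 of 5, and the transcription factors had 0 of 2.

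Further genes tied to fat cells were read from 3 lists, to be set against the 50.7% of all rows with a lower P467L mean, or 45.0% without non-transgenic replicate 1. Of 22 measured further adipokines and fat cell surface genes 20 had a lower P467L mean, with a median difference of -0.11 and 0 passing, and 8 had an r of at least 0.8 with Adipoq. Without that mouse 13 were lower and 8 higher, with a median of -0.015. Sncg, a synuclein abundant in fat, differed by -0.28 with and -0.18 without it, Trarg1, a regulator of glucose transporter traffic, by -0.31 and -0.13, and Itln1, an intelectin, by -0.049 and -0.053. Of 42 further lipid synthesis and storage genes 25 had a lower and 14 a higher mean and the rest equal means, with a median of -0.023 and 0 passing, and 7 reached an r of 0.8. Without that mouse 22 were lower and 16 higher, with a median of -0.0033. Vldlr, a lipoprotein receptor, differed by 0.31 with and 0.33 without it, Ppp1r3c, a glycogen targeting subunit, by 0.25 and 0.33, and G0s2, an inhibitor of Pnpla2, by -0.34 and -0.30, each at an adjusted p of 1 in limma. Of 23 adipogenic transcription factors 16 had a lower mean, with a median of -0.040 and 0 passing, and 15 without that mouse, with a median of -0.037. Pparg was the 1 gene of that list to reach an r of 0.8, at 0.900, with 7.20 in non-transgenic replicate 1 and values between 6.48 and 6.77 in the other 6 mice. Creb1 differed by 0.19 with and 0.16 without non-transgenic replicate 1, Mlxipl by -0.088 and -0.093, and Nr1h3 by 0.14 and 0.22.

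Markers of other cell types were set against Adipoq in the same way. Of 10 measured white adipocyte markers, 9 of them on the list of 34, 8 had an r of at least 0.8 with Adipoq or were Adipoq itself. None of the measured markers of brown fat (9), adipocyte progenitors (5), smooth muscle (8), endothelium (8), fibroblasts (7), mesothelium (6), macrophages (6), lymphocytes (5) or Schwann cells and nerve (4) reached that value, 0 of 57 different genes against 4.00% of all rows. The 3 of highest r, picked after their values were seen, were Kdr of endothelium at 0.762, Pi16 of progenitors at 0.736 and Csf1r of macrophages at 0.677. Kdr was highest in non-transgenic replicate 1, and Pi16 and Csf1r were highest in that mouse and P467L replicate 2. The lowest r, picked in the same way, were -0.929 for Col1a1, -0.856 for Msln of mesothelium and -0.841 for Col1a2. Of all rows that vary, 0.247% lay between -1 and -0.9 and 1.31% between -0.9 and -0.8. All 3 genes were lowest in non-transgenic replicate 1, and their rows hardly varied among the other mice. Col1a1 was at 7.76 in that mouse and from 7.79 to 7.81 elsewhere, and Col1a2 was at 7.95 there and at 8.03 on every other array. Msln was at 5.34 there, at 5.65 in P467L replicate 1 and at 5.53 on the rest. As the mean deviation of its genes from their own means, the white adipocyte list reached 0.83 in non-transgenic replicate 1, against -0.30 to 0.056 in the other non-transgenic mice, and from -0.29 to 0.053 in P467L mice. On the same scale smooth muscle markers ran from -0.014 to 0.18 in non-transgenic and from -0.16 to -0.033 in P467L mice, with 8 of 8 lower means and 0 passing. Endothelial markers ran from -0.15 to 0.16 in non-transgenic mice, highest in replicate 1, and from -0.13 to 0.14 in P467L mice. Fibroblast markers ran from -0.19 to 0.055 and from -0.088 to 0.19, and macrophage markers from -0.14 to 0.055 and from -0.22 to 0.36, with 7 of 7 and 6 of 6 higher means and 0 passing. Without non-transgenic replicate 1, 5 fibroblast means were higher and 2 equal. The macrophage count stayed at 6 higher and the smooth muscle count at 8 lower. Summed over its genes, the white adipocyte list came to 69.44 to 80.76 in non-transgenic and 69.55 to 73.01 in P467L mice, the smooth muscle list to 79.43 to 81.01 and 78.24 to 79.28, the endothelial list to 61.69 to 64.19 and 61.86 to 64.06, the fibroblast list to 62.33 to 64.04 and 63.04 to 64.99, and the macrophage list to 38.5 to 39.69 and 38.05 to 41.51. These sums add log2 values over lists of different length, so they compare mice within a list and not the lists with each other. No marker was at 0, as background signal keeps array values above it. The part of these cell types in the differences of the fat cell genes was not tested. Median differences of the lists with and without non-transgenic replicate 1 were -0.31 and -0.043 for white fat, -0.080 and -0.080 for brown fat, 0.052 and 0.050 for progenitors, -0.165 and -0.17 for smooth muscle, and 0.017 and 0.070 for endothelium. They were 0.14 and 0.19 for fibroblasts, -0.014 and -0.023 for mesothelium, 0.096 and 0.16 for macrophages, 0.049 and 0.030 for lymphocytes, and 0.045 and 0.048 for Schwann cells and nerve, with 0 genes passing in each. Over all arrays the 3 markers of smallest p in each list differed by -0.28 (Des), -0.40 (Myocd) and -0.18 (Smtn) in smooth muscle, 0.27 (Dcn), 0.14 (Dpt) and 0.084 (Pdgfra) in fibroblasts, and 0.35 (Aif1), 0.16 (Adgre1) and 0.275 (Cd68) in macrophages. They were Aqp7, Adig (-0.46, and -0.16 without non-transgenic replicate 1) and Plin1 in white fat, Ppargc1a (-0.28), Cidea (-0.11) and Otop1 (0.15) in brown fat, and Cd34 (0.26), Pdgfra and Dlk1 (0.052) in progenitors. In the other lists they were Egfl7 (0.030), Cdh5 (0.15) and Tek (0.16), Krt18 (-0.165), Msln (0.0875) and Krt19 (0.069), Ms4a1 (0.23), Cd3g (0.13) and Cd79a (-0.24), and S100b (0.19), Dbh (0.0675) and Th (0.022), each at an adjusted p of 1 in limma.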

How the data were processed

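Mesenteric artery of 7 mice, 3 P467L and 4 non-transgenic, was measured on Affymetrix mouse exon arrays, 1 mouse per array as the labels state. The deposited values are log2 expression values made by the authors with Affymetrix Power Tools and RMA on mm9, per the submitters' processing notes; the sources give no version or option. Such values have been brought to a similar distribution, although upper quartiles still ran from 7.1 to 7.29, and background signal compresses differences of dim rows. Rows were named through the platform annotation: 14996 of 23332 had 1 symbol, and 0 symbols changed through RefSeq. Beside the 7 sample columns there were 0 others.

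A mean per group was fitted to every row, with no covariate or filter, by limma 3.58.1 under R 4.3.3 and moderated with eBayes. P-values were adjusted by Benjamini-Hochberg across the whole table, calls were made at 0.05, and intervals are 95%. The fit was tested on simulated data. Pearson's r with Adipoq was computed for every row, with an exact two-sided permutation p over all pairings of the arrays (Python 3.11.15, numpy 2.4.6). The share of all rows past a threshold stands beside the first count of listed genes past it.

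The genes, the lists and the tests were chosen with earlier results of these data known, so lists get counts and medians but no test. Values on every array are given for 6 adipocyte genes where measured, the 8 genes of widest span, the 3 of smallest p in each direction, and Fabp4, Cd36, Lpl and Ucp1; outside the list, the 3 genes of smallest p in each further list, the 8 most like Adipoq, Pparg and Myh11 are named. The number of arrays limits the precision. Alternatives were further normalizations, filters on dim or tied rows, a block for replicate number, weights per array, other moderation, rows with 1 symbol, other measures of likeness, and each array left out. Chosen after seeing the data were Car3 as yardstick, leaving out the 2 arrays farthest from the median of Adipoq, and the promoter motifs.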

Additional observations from a re-analysis of the deposited data

Results flagged for a closer look

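In 6 of 32 genes (18.75%) 1 of the 4 non-transgenic arrays lay far from the others, its gap to the nearest array, as a share of the group's whole range, being above Dixon's 95% critical value. The same held for 20.2% of all rows that vary in that group, so the share is close to the background. Chance gives this in about 1 group in 20 for untied values, whereas the values here are rounded and often tied. Srebf1 and Acly were constant in the group and could not be tested. In 5 of the 6 the array was non-transgenic replicate 1, on the high side: Angptl4 at 7.22 with the next array at 6.76, Pck1 at 7.21 against 6.62, Pnpla2 at 8.28 against 7.66, Lpin1 at 6.84 against 6.55, and Gpam at 6.55 against 6.54. The last gap is 1 step of the deposited decimals. Plin5 was at 6.48 in non-transgenic replicate 3 and at 6.39 in the other 3. Adipoq was not among the 6, since non-transgenic replicate 2 was low as well. Groups of 3 arrays were not tested in this way.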

How the results depend on the processing

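No row passed in limma at an adjusted p of 0.05 under any alternative. Rows at an unadjusted p under 0.05 ran from 409 of the 14996 with 1 symbol to 2834 of 23332 with array weights. Those weights were 3.54, 0.46 and 0.33 in P467L replicates 1 to 3, so the weighted P467L mean leaned on replicate 1. They ran from 0.75 to 1.69 in non-transgenic mice. The count of genes with lower P467L means was 25 to 28 of 34 under other normalizations, array weights and the replicate block. It was 26 of 32 without the dim rows and 24 of 28 without the tied rows. With 1 array left out it was 19 to 28 of 34, and the median difference was -0.17 to -0.028. The count of genes at r of at least 0.8 was 12 after a further quantile normalization and 8 by Spearman's rho. Without the 2 arrays farthest from the median of Adipoq it was 7, of which 4 were among the 13 found over all arrays. It was 6 to 18 with 1 array left out, lowest when non-transgenic replicate 1 was dropped. None of the 34 genes had more than 1 row, so a choice between rows changed nothing in them. Creb1, from the further lists, had 2 rows, and only the row of higher mean was used. Arrays with the same replicate number did not deviate together (r over rows of 0.12, -0.20 and -0.090 for numbers 1, 2 and 3), so the numbers were not taken as pairs. With the replicate block 0 rows passed, 25 genes had lower means and the median was -0.13. Agpat2 (0.0033) and Elovl6 (0.033) changed sign. Number 4 has no P467L array, so the block gave the same differences as leaving out non-transgenic replicate 4, such as -0.42 in Adipoq. Signs also changed for Dgat1 with array weights (0.012) and after a further quantile normalization (0.00048), and with array weights for Cebpa (-0.027) and Plin5 (-0.022). With 1 array left out, differences ran from -0.71 to 0.033 in Adipoq, -0.69 to 0.090 in Car3, -0.58 to 0.050 in Lpl, -0.785 to 0.073 in Cd36, -0.0925 to 0.037 in Lpin1, -0.12 to 0.12 in Dgat2, -0.21 to 0.027 in Pnpla2, -0.0575 to 0.20 in Plin2, -0.073 to 0.050 in Dgat1, -0.083 to 0.025 in Agpat2, -0.020 to 0.035 in Slc27a1, -0.090 to 0.15 in Cebpa, -0.19 to 0.033 in Elovl6 and -0.0725 to 0.11 in Plin5. Except where an array was left out, directly or through the block, the cause was not tested.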

Other observations

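Outside the list, the 8 genes with exactly 1 symbol and the highest r with Adipoq were Zdhhc17 (0.992), Eci2 (0.989), Ghr (0.983), Orm1 (0.980), Prkar2b (0.975), Ddx55 (0.975), Glb1l2 (0.975) and Amy1 (0.970), each over 7 arrays and at an adjusted permutation p of 0.572 or above. Ghr is the growth hormone receptor gene, Prkar2b a regulatory subunit of protein kinase A, Eci2 an enzyme of fatty acid oxidation and Orm1 an acute phase protein. Without non-transgenic replicate 1 their r was between 0.913 and 0.983. Prkar2b was at 7.38, 5.59, 5.96 and 5.96 in non-transgenic replicates 1 to 4 and at 5.63, 6.30 and 5.92 in P467L replicates 1 to 3. Amy1, an amylase gene, was at 9.74, 7.11, 7.73 and 7.65 in non-transgenic and at 7.08, 8.13 and 7.71 in P467L artery. In that gene non-transgenic replicate 1 was 4.51-fold above the mean of the other 6 arrays, more than in Adipoq. Zdhhc17, a palmitoyltransferase, put the 7 mice in the same order as Adipoq, over a span from 8.99 to 9.68. Of the 20 named rows closest to Adipoq, 3 were genes of the list: Car3, Lpl and Cidec.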
